A study of Drosophila melanogaster with 8 samples.

Results

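Cytoplasmic ribosomal protein genes encode the proteins of the large (RpL) and small (RpS) subunits of the ribosome that translates most cellular mRNAs. They were taken as the genes whose symbol starts with RpL, RpS or RpLP followed by a number. Of 92 such symbols, 1 lies on chromosome 4 and was left out, and 2 (RpS28a and RpS28-like) were listed at 0 in all 8 tables. The remaining 89 genes, 54 of the large and 35 of the small subunit, are the members, among 15598 genes listed. The levels of 87 members reached 1 FPKM (fragments per kilobase of transcript, scaled to the mapped fragments of the library) in at least 1 table, as did those of 8728 genes in all, and comparisons used these. The other 2 members, RpL10Aa and RpL22-like, stayed below 1 FPKM throughout.

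The members were examined by mRNA-seq of early *Drosophila melanogaster* embryos, with 1 table for each of 8 conditions. Maternal NSUN2 knockout embryos, from NSUN2-/- virgin mothers mated to w1118 males, were collected at 0–0.5 h, 2–3 h and 4–5 h. Wild-type embryos, from w1118 virgins (strain label WIII8) mated to the same kind of male, were collected at 0–0.5 h, 1–2 h, 2–3 h, 3–4 h and 4–5 h. NSUN2, an enzyme that writes 5-methylcytosine on RNA, was mutated by CRISPR/Cas9, and a paternal wild-type X chromosome reached daughters only, so male and female knockout embryos differ in zygotic genotype. Each collection held 70 to 100 embryos. There was 1 table per condition and no replicate table, so no p-value, SD or replicate check can be given. A gene is called higher or lower here where FPKM + 1 differs by at least 1.5 times, and the share of all 8728 genes called in the same way is given beside it.

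Early fly embryos depend on ribosomes and mRNAs that the mother loads into the egg, until the zygotic genome takes over. Ribosomal proteins are needed in matching amounts, and loss of a single copy of many of their genes gives the Minute phenotype of slow development and thin bristles. Their short and abundant mRNAs are known in animals for joint control of translation. Several proteins have gene copies with germline-enriched expression, and some "-like" genes encode relatives that help to assemble the large subunit.

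The tables differed in ways that bear on every comparison. NSUN2 itself was at 0.128, 0.213 and 1.18 FPKM in knockout embryos of 0–0.5 h, 2–3 h and 4–5 h, against 2.61, 2.71 and 6.59 FPKM in wild-type embryos of the same windows. The sums of the stage markers were apart between genotypes in all 3 matched windows. All 8 maternal transcripts checked were found in each table, and summed to 2871, 2451 and 1409 FPKM in knockout embryos in the order of time, against 1916, 368.6 and 618.7 FPKM in wild-type embryos of the same windows. CycB held much of these sums, with 1083, 1423 and 862.5 FPKM in knockout and 474.8, 138.2 and 526.4 FPKM in wild-type embryos. The wild-type sum was higher at 4–5 h than at 2–3 h because of CycB. The 14 early zygotic genes checked summed to 83.9, 207.5 and 206.7 FPKM in knockout embryos, against 156.2, 403.9 and 375.3 FPKM in wild-type embryos. Single genes did not all follow this sum, and slam was higher in the knockout in all 3 windows. Embryo stage and genotype therefore cannot be told apart in any of the 3 windows. osk, which marks the posterior of the egg, stood at 69.6 FPKM in knockout and 3.79 FPKM in wild-type embryos of 2–3 h. The wild-type table of 3–4 h stood apart. Its 10 genes of late muscle and nerve summed to 159.8 FPKM (Act57B alone 87.2 FPKM), against 25.1 FPKM at 4–5 h and 9.39 FPKM at 2–3 h, and 1.17 to 1.72 FPKM in the earlier wild-type tables. In knockout tables this sum was 0.632 to 7.31 FPKM. All 10 genes were above 0 in the 3–4 h table, where 6 reached 1 FPKM. Eggshell and yolk protein genes (12 genes, sums of 0.989 to 11.8 FPKM) and male tissue genes (7 genes, sums of at most 0.607 FPKM) were near 0. The part of these differences in the results below was not tested, and the result that rests on the 3–4 h table is also given without it.

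Ribosomal protein transcripts held a large part of the signal in these libraries. The 89 members held 29.1%, 33.3% and 41.2% of the summed FPKM in knockout embryos of 0–0.5 h, 2–3 h and 4–5 h. In the 5 wild-type tables they held 32.2%, 37.2%, 40.7%, 40.0% and 40.2% in the order of time. The knockout share was thus below the wild-type share at the first 2 matched windows, and the shares at 4–5 h were close, with a gap within the range that the intervals of the values allow. Between 59 and 71 members were among the 100 most abundant genes of a table. The large subunit gave 61.5% to 62.8% of the members' sum in every table, so the balance between subunits hardly moved.

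**Figure D1:**
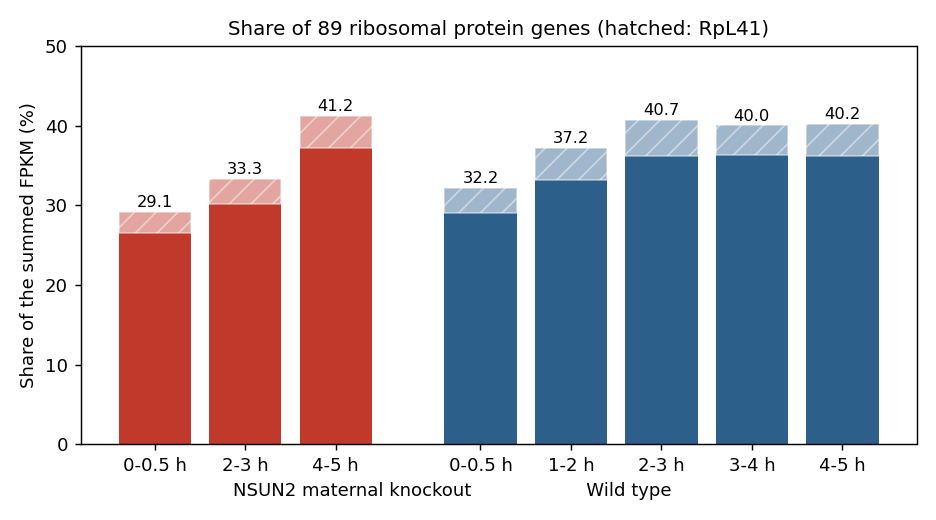
Share of the summed FPKM of each table (vertical axis, %) held by the 89 ribosomal protein genes in maternal NSUN2 knockout (red, left) and wild-type embryos (blue, right). Each bar is 1 table, and the hatched part is RpL41, which holds 2.66% to 4.52%. Knockout bars are lower than wild-type bars at 0–0.5 h and 2–3 h but not at 4–5 h.

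The members spanned a wide range of levels. RpL41, which encodes the smallest ribosomal protein, was the most abundant in each table. It had 22072, 26452 and 38526 FPKM in knockout embryos of 0–0.5 h, 2–3 h and 4–5 h. In the 5 wild-type tables it had 26849, 38056, 46640, 34238 and 38004 FPKM in the order of time. The next most abundant in wild type at 0–0.5 h were RpL39, which lines the exit tunnel for new protein, with 8069 FPKM, RpS16 with 6311, RpL10, which is needed for the subunits to join, with 6271, and RpL27A with 6242 FPKM. At that stage 64 of 89 members lay above 1000 FPKM. The median of the 87 members was 2879, 3204 and 4370 FPKM in knockout tables in the order of time. It was 3298, 4047, 4808, 3968 and 4343 FPKM in wild-type tables in the order of time, while the median of all 8728 genes stayed between 8.20 and 20.8 FPKM. Length enters an FPKM value, and short transcripts such as that of RpL41 are the least certain on this scale. Cufflinks gave each value an interval for the uncertainty within 1 library. Its half-width had a median over the members of 4.10% to 4.18% of the value, and was at most 5% for 80 to 82 of the members in a table. Over all genes the median half-width was 6.56% to 10.8%. Equal changes therefore part the intervals of members more readily, which bears on every share of intervals apart given below.

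In wild-type embryos most members had somewhat higher values at each of the first 2 steps, nearly all below the call. From 0–0.5 h to 1–2 h the median change was 0.30 on the log2(FPKM + 1) scale, while that of all genes was -0.11. By the 1.5-fold rule 1 member was called higher and 0 lower, against 6.07% and 22.7% of all genes. After subtraction of the all-gene median the counts were 3 and 0 members, against 7.76% and 17.4% of all genes. The intervals of the 2 tables were apart for 73 of 87 members (83.9%), against 59.8% of all genes, and 69 of these 73 were higher at 1–2 h. The single call was RpL37b, which had 0.884 FPKM at 1–2 h (interval 0.0934 to 1.68 FPKM) and was listed at 0 at 0–0.5 h. The change was thus above 0 in 74 of 87 members but mostly small.

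From 1–2 h to 2–3 h the members' median change was again upward, 0.25, against -0.07 for all genes. A total of 83 of 87 members were above 0. The calls were 2 higher and 0 lower, against 12.7% and 25.5% of all genes. Both calls were genes close to the detection limit, namely RpL37b with 2.04 FPKM at 2–3 h and 0.884 FPKM at 1–2 h, and RpS19b, a copy of RpS19a known for germline expression, with 2.42 and 1.06 FPKM. Intervals were apart for 74 members (85.1%) and 65.4% of all genes.

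The members split into 2 courses at the wild-type step to 3–4 h. The median change of all 87 was -0.32, while that of all genes was 0.58. The calls were 20 higher (23.0% of members) and 0 lower, against 49.6% and 19.2% of all genes, so the share called higher was below that of all genes. It was above that of other abundant genes, those above 100 FPKM in wild type at 0–0.5 h. Grouped by transcript length, 3.015% to 13.03% of these were called higher, with medians of -0.75 to -0.61. Relative to the all-gene median, 17 members were higher and 59 lower, against 32.8% and 34.3% of all genes. With tables scaled by the median of ratios, the counts were likewise 17 higher and 57 lower, with an all-gene median of 0.21. With tables scaled to equal sums they were 21 higher and 0 lower, with an all-gene median of 0.71. The shares of all genes called under these scalings are not given here, so these counts describe the members only. Intervals were apart for 80 members (92.0%) and for 82.2% of all genes.

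The 20 members called higher were 15 of the large subunit (RpL3, RpL4, RpL6, RpL7A, RpL8, RpL13, RpL13A, RpL17, RpL18, RpL22, RpL23A, RpL24, RpL34b, RpL37b and RpLP0) and 5 of the small subunit (RpS2, RpS3, RpS5b, RpS6 and RpS10b). Their median change was 1.94, with a range of 0.93 to 2.63, and the other 67 had a median of -0.37. With the pseudocount of 1 the values left a gap between the courses. The highest member outside was RpS19b (0.52), and the lowest inside were RpL17 and RpL4 (0.93 each) and RpL22 (0.99). RpS19b, near the detection limit, stayed outside only through the pseudocount, as its plain FPKM ratio was 1.62. With a pseudocount of 0.1, 21 members were called higher. The split was made on these 2 tables, so the size of this difference is a description.

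RpL3, a protein at the peptidyl transferase centre (3R from 7047616 to 7050666, BDGP5), made the largest step. Knockout embryos had 776.9, 1276 and 1290 FPKM of it in the order of time. Wild-type embryos had 437.1, 362.1, 369.2, 2285 and 981.5 FPKM in the same order. Its 3 early wild-type values were thus the 3 lowest of the 8, and its interval at 3–4 h, 2191 to 2379 FPKM, lay above all others.

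RpL6 had 1076, 1749 and 1807 FPKM in knockout tables in the order of time, and 684.1, 674.9, 585.2, 3592 and 2473 FPKM in wild-type tables. RpL13 had 781.9, 1352 and 1552 FPKM in the knockout, and 539.8, 512.7, 606.4, 3409 and 1672 FPKM in wild type. RpS6, the classical substrate of S6 kinase (X from 7793653 to 7795362), had 1637, 2402 and 2958 FPKM in the knockout, and 943.0, 884.2, 934.0, 3683 and 2665 FPKM in wild type. In each of these genes all 3 knockout values exceeded the 3 early wild-type values, and the wild-type value at 3–4 h was the highest of the 8.

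RpL7A, RpS3 and RpL4 showed the same order with different heights. RpL7A had 941.1, 1609 and 1344 FPKM in knockout tables in the order of time, and 604.3, 534.7, 499.0, 2712 and 1467 FPKM in wild-type tables. RpS3, a protein at the mRNA entry, had 1942, 2348 and 3044 FPKM in the knockout, and 1243, 1211, 1360, 3106 and 2813 FPKM in wild type. RpL4, which reaches into the exit tunnel, was among the weakest, with 210.2, 316.7 and 267.0 FPKM in the knockout and 190.4, 182.3, 193.9, 369.6 and 260.2 FPKM in wild type. RpL37b was the only one of the 20 near 0, with at most 6.41 FPKM in any table.

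Most of these 20 genes were less abundant than the rest, above all before the step. Their median level was 779.4, 1314 and 1317 FPKM in knockout tables in the order of time, and 498.8, 488.3, 515.7, 2417 and 1308 FPKM in wild-type tables. The other 67 had medians of 3102, 3575 and 5049 FPKM in the knockout, and 3651, 4547, 5432, 4512 and 4610 FPKM in wild type. The 20 thus approached the others at 3–4 h but stayed below them. They gave 12.0% of the members' summed FPKM in wild type at 3–4 h, against 2.98% at 2–3 h.

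**Figure D2:**
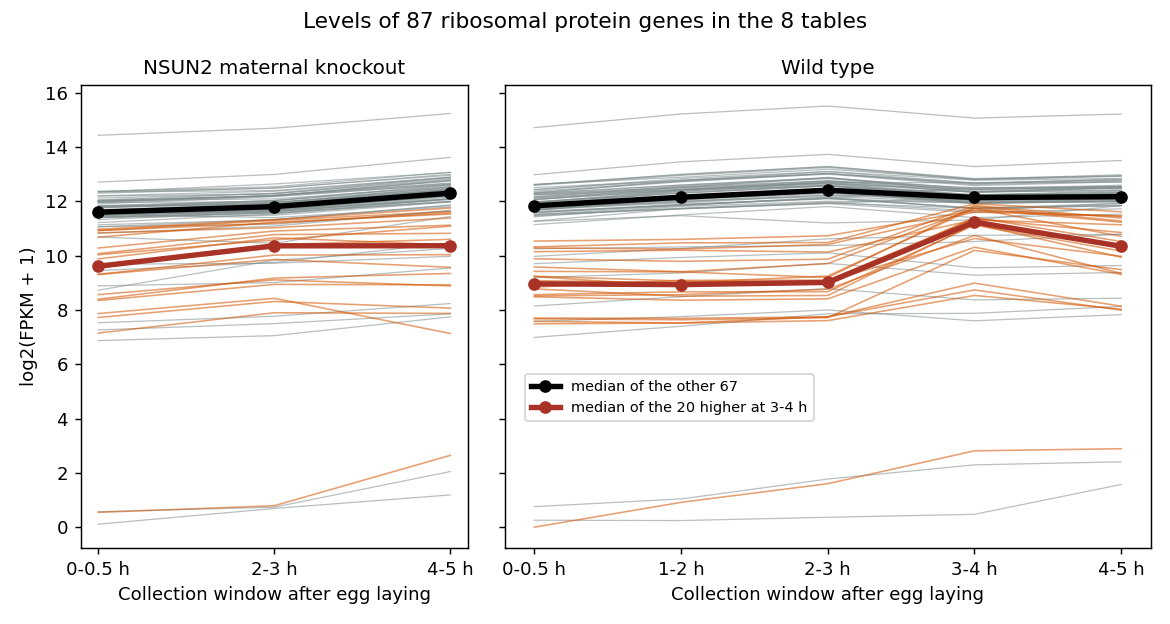
Level of each of 87 ribosomal protein genes as log2(FPKM + 1) (vertical axis) over the collection windows in knockout (left panel) and wild-type embryos (right panel). Thin orange lines are the 20 genes called higher at 3–4 h than at 2–3 h in wild type, thin grey lines the other 67, and thick lines the medians. The 20 sit low and flat in wild type until 2–3 h, stand up at 3–4 h, and already sit higher in knockout embryos at 0–0.5 h.

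At 4–5 h 10 of the 20 genes were called lower again. The median change of all members from 3–4 h was 0.09, against -0.03 for all genes. The calls were 1 higher and 10 lower, against 3.20% and 18.8% of all genes. All 10 belonged to the 20 genes above (RpL3, RpL7A, RpL8, RpL13, RpL18, RpL22, RpL23A, RpLP0, RpS2 and RpS5b), which share the 3–4 h table with this comparison. RpL23A, the docking site for factors at the exit tunnel, was lowest against 3–4 h, with 648.8 FPKM at 4–5 h and 1713 FPKM at 3–4 h. The 1 called higher was RpS10a, with 1.97 FPKM at 4–5 h and 0.389 FPKM at 3–4 h. Intervals were apart for 57 members (65.5%) and 53.5% of all genes.

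The comparison without the 3–4 h table still uses the 2–3 h table against which the 20 were chosen, so part of its direction is set by that choice, and it is given as a description. Between the wild-type tables of 4–5 h and 2–3 h, 19 members were called higher and 0 lower, and 16 of the 19 were among the 20. The median of the 20 was 1.21, that of the other 67 was -0.25, and that of all genes was 0.44, with 45.4% of all genes called higher.

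**Figure D3:**
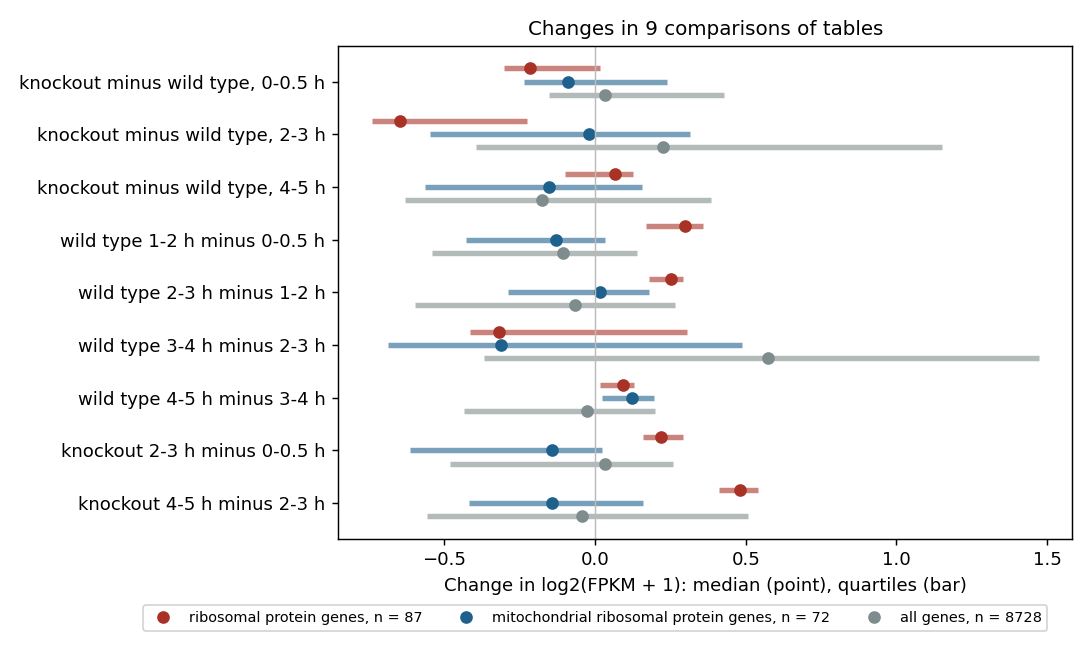
Median (points) and quartiles (bars) of the change in log2(FPKM + 1) (horizontal axis) in 9 comparisons of tables, for 87 ribosomal protein genes, 72 mitochondrial ribosomal protein genes and all 8728 genes. Ribosomal protein genes have narrow bars on the positive side in 5 of the 6 time steps, and the lowest median, -0.65, at 2–3 h between genotypes.

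Knockout and wild-type embryos were compared first at 0–0.5 h. The maternal markers summed to 2871 FPKM in knockout and 1916 FPKM in wild-type embryos there (CycB alone 1083 and 474.8 FPKM). Of them, gcl was slightly lower in the knockout (268.0 and 280.3 FPKM). The early zygotic markers summed to 83.9 and 156.2 FPKM (sisA 9.30 and 34.1 FPKM), but not all were lower in the knockout. Higher there were slam (13.6 and 6.83 FPKM) and, at lower levels, ftz, gt, h, kni and eve. The part of these marker differences in the values that follow was not tested. The median change of the members was -0.22, against 0.03 for all genes. A total of 11 members were called higher in the knockout (12.6%) and 2 lower (2.30%), against 18.4% and 4.07% of all genes. With tables scaled to equal sums these counts were 13 and 1, and with the median of ratios 3 and 7. The all-gene medians were then 0.07 and -0.01, and the shares of all genes called are not given here. The intervals were apart for 76 members (87.4%) and for 56.5% of all genes, with 17 members higher and 59 lower. Most members were thus slightly lower in the knockout, and a small set was higher. Other genes above 100 FPKM in wild type at 0–0.5 h, grouped by transcript length, had medians of -0.21 to -0.13 here. The slight fall was therefore not particular to the members. At most 4.706% of any such group was called higher, against 12.6% of the members.

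The 11 called higher were RpL3, RpL6, RpL7A, RpL13A, RpL18, RpL24, RpL34b, RpS3, RpS5b, RpS6 and RpS10b. All 11 were among the 20 that were called higher at 3–4 h in wild type, that is 11 of 11 and 11 of 20. These 2 comparisons have no table in common. Of all genes, 49.6% were called higher at that step and 18.4% in the knockout at 0–0.5 h. The number of all genes called in both is not given here, so the overlap cannot be called particular to the members. Of the 20, 18 were above 0 with a median of 0.64, and the exceptions were RpL22 (140.8 FPKM in knockout, 178.5 FPKM in wild-type embryos) and RpL23A (324.9 and 365.3 FPKM). Of the other 67, only 4 were above 0, with a median of -0.26. The median of the 20 stayed positive (0.70 and 0.47) and that of the 67 negative (-0.21 and -0.44) under equal sums and under the median of ratios.

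RpL34b was the member with the largest rise at 0–0.5 h. It had 1046 FPKM (interval 1000 to 1092) in knockout embryos, against 457.8 FPKM (435.4 to 480.1) in wild-type embryos, a change of 1.19. RpL3 had 776.9 FPKM in knockout and 437.1 FPKM in wild-type embryos (0.83), and RpS6 had 1637 and 943.0 FPKM (0.80). The 2 genes called lower were RpS14b, with 422.3 FPKM in knockout and 1219 FPKM in wild-type embryos (-1.53), and RpL7-like, with 183.5 and 281.8 FPKM (-0.62). RpS14a, next to RpS14b on the X chromosome, was just outside the call with 1643 and 2454 FPKM (-0.58).

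**Figure D4:**
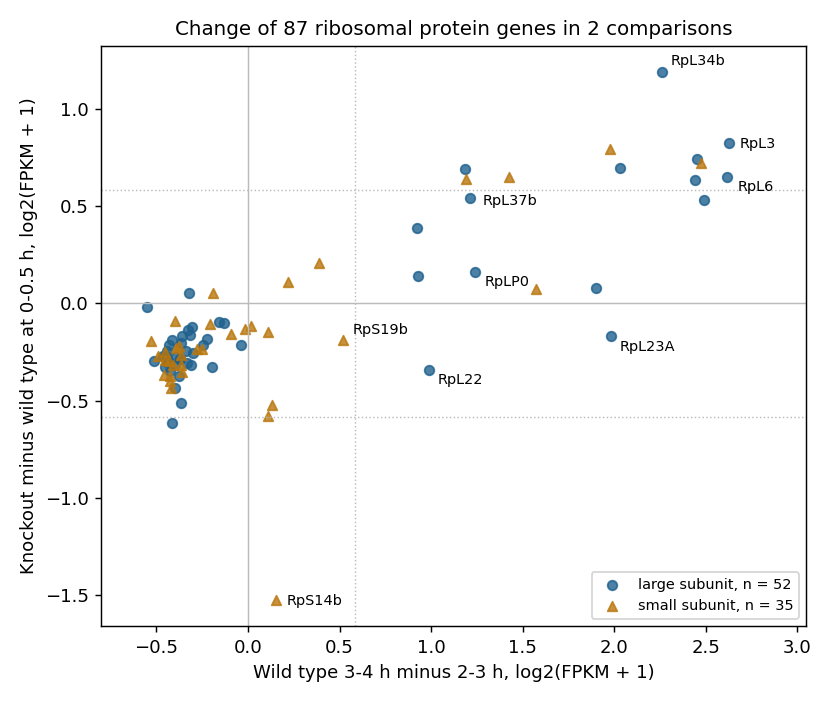
Change of each of 87 ribosomal protein genes from 2–3 h to 3–4 h in wild type (horizontal axis) and between knockout and wild-type embryos at 0–0.5 h (vertical axis), both as differences of log2(FPKM + 1), with circles for the large and triangles for the small subunit. Dotted lines mark the 1.5-fold call. The 20 genes right of the vertical line include all 11 above the upper horizontal line, and most other genes form a tight group at about -0.4 and -0.3.

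At 2–3 h the difference between genotypes was largest. The members' median was -0.65, while all genes had 0.23. The calls were 16 higher (18.4%) and 50 lower (57.5%), against 39.5% and 18.4% of all genes. Relative to the all-gene median, 11 were higher and 64 lower, against 33.3% and 26.5% of all genes. The number of lower calls depended on the scaling, with 17 higher and 4 lower under equal sums, and 9 higher and 66 lower under the median of ratios. The members' median was negative under both (-0.36 and -1.11), while the all-gene median was 0.47 and -0.04. The shares of all genes called under both are not given here. Intervals were apart for 84 members (96.6%) and for 77.3% of all genes.

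Both courses were seen here as well. Of the 20 genes, 16 were called higher in the knockout and 1, RpL37b, lower (0.729 FPKM in knockout, 2.04 FPKM in wild-type embryos), with a median of 0.87. Of the other 67, 0 were called higher and 49 lower, with a median of -0.70. The wild-type table of 2–3 h also entered the definition of the 20. The largest rise was that of RpL3 (1276 FPKM in knockout, 369.2 FPKM in wild-type embryos, 1.79), followed by RpL7A (1609 and 499.0 FPKM, 1.69) and RpL6 (1749 and 585.2 FPKM, 1.58). The largest falls were those of RpS19b (0.667 and 2.42 FPKM, -1.03), RpL7-like (216.9 and 439.6 FPKM, -1.02) and RpL28 (2281 and 4433 FPKM, -0.96). At this window too the maternal markers stood higher and the sum of the early zygotic markers lower in the knockout (above). Against that sum, slam (52.1 FPKM in knockout, 20.7 FPKM in wild-type embryos), nullo (42.05 and 11.8 FPKM) and sc (6.49 and 4.765 FPKM) were higher.

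At 4–5 h the genotypes were closest. The members' median was 0.07 and that of all genes -0.18. The calls were 0 higher and 1 lower, against 19.5% and 27.9% of all genes. The counts were the same relative to the all-gene median, against 24.2% and 17.1% of all genes. Intervals were apart for 53 members (60.9%) and 72.9% of all genes. The gene called lower was RpLP0, the base of the stalk that binds elongation factors, with 139.2 FPKM (132.1 to 146.2) in knockout and 280.7 FPKM (267.3 to 294.1) in wild-type embryos. The members thus lay closer together and closer to 0 than all genes, with quartiles of -0.10 and 0.13 against -0.63 and 0.39.

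Within the knockout, the first step, from 0–0.5 h to 2–3 h, gave the members a median of 0.22, against 0.03 for all genes. A total of 11 were called higher and 0 lower, against 10.5% and 22.5% of all genes, and intervals were apart for 73 members (83.9%) and 65.0% of all genes. Of the 11, 10 were among the 20 genes, all of which were above 0 (median 0.58, against 0.20 for the other 67). This comparison shares no table with the one that defined the 20. The number of all genes called higher in both is not given here, so this too is a description. The remaining one was RpS14b, with 909.3 FPKM at 2–3 h and 422.3 FPKM at 0–0.5 h.

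In the second knockout step, from 2–3 h to 4–5 h, the other genes moved more. The members' median was 0.48 and that of all genes -0.04. A total of 13 were called higher and 1 lower, against 22.4% and 24.0% of all genes, and intervals were apart for 81 members (93.1%) and 75.2% of all genes. All 67 genes outside the 20 were above 0, with a median of 0.50, while the 20 had a median of 0.11. The calls were 3 higher and 1 lower with tables scaled to equal sums, and 23 higher and 1 lower with the median of ratios. The all-gene medians were then -0.20 and -0.004, and the shares of all genes called are not given here. RpL37b had 5.25 FPKM at 4–5 h and 0.729 FPKM at 2–3 h, RpS19b 3.14 and 0.667 FPKM, and RpS14a 2777 and 1402 FPKM. RpLP0 was the 1 called lower, with 139.2 FPKM at 4–5 h and 343.3 FPKM at 2–3 h.

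The spread of each gene over the tables was also taken. For each gene, the SD over the 8 tables was taken of log2(FPKM + 1) after subtraction of the members' median in each table. It had a median of 0.083 over the 67 genes, 0.80 over the 20 and 0.79 over all 8728 genes. The 67 make up most of the members and so largely set the median that was subtracted, and the 20 were chosen for a change between 2 of the 8 tables, so these groups differ in part by construction. The members' median was also the one subtracted for all 8728 genes, so their SD too is set in part by that choice. The SD was below 0.15 for 55 of the 67, for 0 of the 20 and for 211 of all 8728 genes. The steadiest were RpS7 (0.035), RpL7 (0.038) and RpL23 (0.042). RpS7 had 4109, 4781 and 6453 FPKM in knockout tables, and 4833, 5958, 6895, 5786 and 6009 FPKM in wild-type tables, in the order of time. The most variable were RpL3 (1.03), RpL34b (1.01), RpS5b and RpL6 (0.99 each), RpL37b (0.97), RpL13 (0.96), RpL18 (0.94), RpL7A (0.93), RpL13A (0.89) and RpS6 (0.87), all from the 20.

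Named neighbours in the ribosome were not always on the same course. RpL5 and RpL11, which form a particle with 5S rRNA, were both outside the 20. RpL5 had 3962, 4756 and 6542 FPKM in knockout tables and 5035, 6220, 7455, 5549 and 5981 FPKM in wild-type tables in the order of time. The stalk was divided. RpLP1 and RpLP2, which form its arms, were outside the 20, with 3539, 3800 and 5049 FPKM and 3621, 3987 and 5483 FPKM in knockout tables. In wild-type tables RpLP1 had 4445, 5620, 6359, 5552 and 5902 FPKM and RpLP2 had 3885, 4354, 5733, 5235 and 5363 FPKM. Their base RpLP0 never exceeded 506.4 FPKM. The 3 stalk genes thus did not share a level or a course.

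RpS27A and RpL40, which are made as fusions to ubiquitin, were also outside the 20. RpS27A had 4023, 4660 and 6304 FPKM in knockout tables, and 4607, 5836, 7541, 5228 and 5864 FPKM in wild-type tables. At the step to 3–4 h in wild type it was one of the 3 lowest members, at -0.53, with RpL34a (-0.55) and RpL36A (-0.51), none of which passed the call. RpS2 and RpS3, neighbours at the mRNA entry, were both among the 20. RpL8 at the catalytic centre and RpL17, RpL4 and RpL23A along the exit tunnel were too, whereas RpL39 of the same tunnel was not.

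Transcript length differed between the courses. By the Ensembl annotation of the later build BDGP6, the 20 genes had a median transcript length of 942.8 bases (12 of 20 at least 900), and the other 67 had 656.0 bases (9 of 67 at least 900). Over the 87 genes, Spearman's rank correlation of length with change was 0.29, 0.51 and -0.10 between genotypes at the 3 matched windows in the order of time. It was -0.55, -0.28, 0.46 and -0.54 over the 4 wild-type steps, and 0.39 and -0.50 over the 2 knockout steps, so that its sign was not the same at all steps. The genes share their tables, and length enters the FPKM values, so these are descriptions. Among other genes above 100 FPKM in wild type at 0–0.5 h, the share called higher at the step to 3–4 h was 3.02% of 199 genes below 700 bases, 8.63% of 255 genes from 700 to 1000 bases, 11.2% of 347 genes from 1000 to 1500 bases and 13.0% of 568 longer genes. Their median changes at that step were -0.61, -0.75, -0.63 and -0.70 in the same order of length, with no trend. Between genotypes at 2–3 h, in contrast, their medians rose with length, at -0.42, -0.27, -0.01 and 0.35. The share called higher in the knockout there ran from 7.035% of the shortest group to 37.85% of the longest. A relation of change with length at that window was thus not confined to the members. Small nucleolar RNAs lay inside 8 of the 20 and 19 of the 67 genes.

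Gene copies for the same protein did not always follow each other. RpL34b was among the 20 and RpL34a was not. RpL34b held 56.0%, 64.4% and 68.4% of their joint FPKM in knockout embryos of 0–0.5 h, 2–3 h and 4–5 h. In wild-type tables it held 35.5%, 35.8%, 33.2%, 77.8% and 69.9% in the order of time. The more abundant copy was therefore RpL34a in the 3 early wild-type tables and RpL34b in the other 5.

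RpS5b, known for expression in the ovary, held 32.5%, 40.2% and 31.3% of the joint level with RpS5a in knockout tables. In wild-type tables it held 16.8%, 13.9%, 11.8%, 40.5% and 28.8% in the order of time. RpS14a and RpS14b are near-identical neighbours on the X chromosome (7827775 to 7828710 and 7828931 to 7829832), and unique alignment can divide their reads unevenly, so their separate values are uncertain. RpS14b held 20.4%, 39.3% and 30.7% of their sum in knockout tables, and 33.2%, 31.0%, 35.9%, 36.6% and 32.5% in wild-type tables. Only the knockout value at 0–0.5 h lay far from the rest.

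In the remaining pairs 1 copy dominated. RpS15Ab held 3.63% to 5.91% of its pair with RpS15Aa over the tables. RpS10a, RpS19b, RpL37b and RpL22-like, which are known mainly from germ cells or testis, each held at most 0.162% of the pair with RpS10b, RpS19a, RpL37a or RpL22. RpL10Aa, the weaker copy beside RpL10Ab, was listed above 0 in 2 tables only (0.0535 FPKM in knockout and 0.0667 FPKM in wild-type embryos, both at 2–3 h). RpS28a and RpS28-like were listed at 0, while RpS28b had 3485 to 6953 FPKM.

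The 3 "-like" genes with substantial levels are relatives of ribosomal proteins that act in assembly of the large subunit. RpL7-like held 5.85%, 6.23% and 6.43% of its joint level with RpL7 in knockout tables, and 7.63% to 8.67% in wild-type tables, so that each knockout share lay below each wild-type share. RpL24-like held 20.5%, 19.8% and 21.8% of its joint level with RpL24 in knockout tables, and 34.1%, 35.9%, 42.8%, 19.6% and 22.8% in wild-type tables. RpLP0-like held 39.6%, 34.3% and 62.4% with RpLP0 in knockout tables, and 47.8%, 51.1%, 54.4%, 27.6% and 44.6% in wild-type tables. RpL24 and RpLP0 are among the 20, and RpL24-like and RpLP0-like are not. Both shares were lowest in wild type at 3–4 h.

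**Figure D5:**
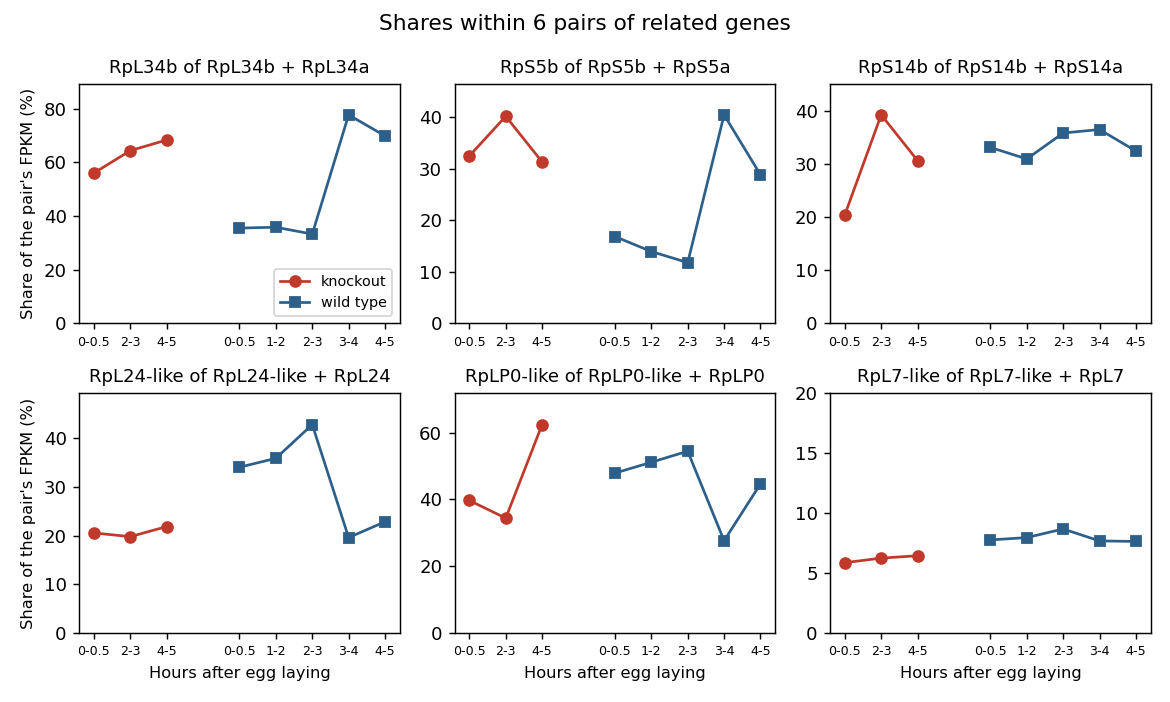
Share of the joint FPKM of 2 related genes (vertical axis, %) held by the first of them in knockout (red, left in each panel) and wild-type embryos (blue, right) over the collection windows, for 6 pairs. Each point is 1 table. The shares of RpL34b and RpS5b are higher at 3–4 h than at 2–3 h in wild type and already high in the knockout at 0–0.5 h.

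Of 2 listed ribosomal protein genes outside the rule, 1 was called higher at the wild-type step to 3–4 h (1.87), and the other, the one on chromosome 4, changed by -0.47. sta, the one called higher, which encodes the small-subunit protein RpSA, had 434.3, 569.9 and 402.6 FPKM in knockout tables and 351.7, 309.7, 366.1, 1341 and 582.7 FPKM in wild-type tables in the order of time, the course of the 20. Rack1, a scaffold on the small subunit, had 441.1, 776.1 and 630.3 FPKM in knockout tables and 269.6, 235.6, 231.7, 1291 and 579.5 FPKM in wild-type tables. Tctp, a growth protein whose mRNA is controlled in mammals like those of ribosomal proteins, had 3506, 4259 and 5925 FPKM in knockout tables and 4288, 5513, 6716, 5265 and 5855 FPKM in wild-type tables, the course of the 67.

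The gene lists that follow are to be read against all 8728 genes. Between genotypes 18.4% of these were called higher and 4.07% lower at 0–0.5 h. The shares were 39.5% and 18.4% for the windows of 2–3 h, 19.5% and 27.9% for those of 4–5 h, and 49.6% and 19.2% for the wild-type step to 3–4 h. Of 29 translation factors and associated proteins, 6 were called higher and 0 lower in the knockout at 0–0.5 h (median 0.06), 15 and 2 at 2–3 h (0.59), and 2 and 1 at 4–5 h (-0.01). At the wild-type step to 3–4 h, 16 were called higher and 4 lower (median 0.72). The initiation helicase eIF-4a had 833.6, 1425 and 1720 FPKM in knockout tables and 433.5, 395.4, 478.9, 1949 and 1327 FPKM in wild-type tables. The elongation factor Ef1alpha48D had 1556, 2759 and 2174 FPKM in knockout tables and 1325, 1068, 1306, 5502 and 2464 FPKM in wild-type tables. eIF-5A, in contrast, had 3353, 4254 and 5849 FPKM in knockout tables and 4234, 5679, 6928, 5203 and 5898 FPKM in wild-type tables.

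Of 30 genes for ribosome biogenesis and RNA polymerase I, 4 were called higher and 3 lower in the knockout at 0–0.5 h (median -0.10), 10 and 3 at 2–3 h (0.15), and 2 and 9 at 4–5 h (-0.12). At the step to 3–4 h in wild type, 15 were called higher and 4 lower (0.71). Fib, the methyltransferase of box C/D particles, had 20.1, 31.3 and 36.6 FPKM in knockout tables and 14.5, 16.8, 16.9, 65.9 and 50.7 FPKM in wild-type tables.

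The 72 mitochondrial ribosomal protein genes differed from the cytoplasmic set in the early steps. Their median change was -0.13 and 0.02 in the first 2 wild-type steps, and -0.14 in both knockout steps. Between genotypes it was -0.09 at 0–0.5 h (8 higher, 1 lower), -0.02 at 2–3 h (12 higher, 16 lower) and -0.15 at 4–5 h (6 higher, 16 lower). At the wild-type step to 3–4 h it was -0.31 (17 higher, 24 lower), next to -0.32 for the cytoplasmic set. Of 10 kept genes of growth control, 3 were called higher and 0 lower in knockout than in wild-type embryos of 0–0.5 h. The counts were 6 and 0 for the windows of 2–3 h, 4 and 4 for those of 4–5 h, and 5 and 2 for the wild-type step to 3–4 h. Thor, the repressor of cap-dependent translation, had 25.1, 22.4 and 60.3 FPKM in knockout tables and 31.3, 24.9, 20.4, 102.2 and 166.8 FPKM in wild-type tables.

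All of these values come from poly(A)-selected RNA of whole embryos. Amount of RNA and length of its poly(A) tail cannot be told apart in it, nor can RNA per cell and the number of cells that hold it.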

How the data were processed

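The authors isolated total RNA from embryos, selected polyadenylated RNA, and made strand-specific libraries from 1 µg of RNA with SIRV spike-in RNA added. Per their methods and the labels, they trimmed adapters with cutadapt 1.13, mapped read pairs with TopHat2 to BDGP5 and the Ensembl 78 gene models, used reads that aligned at a single place, and ran Cufflinks. Its FPKM values, each with an interval, were deposited by the authors as 1 table per condition. FPKM divides fragments by transcript length and by the mapped fragments of the library, so that abundant genes move all others. The methods speak of averages over replicates, and each table holds 1 value per gene. Fragment counts are not in the tables and the depth behind each value is unknown here. No spike-in RNA is listed in them, so values are relative within a table.

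Tables were joined by gene identifier. Changes are differences of log2(FPKM + 1), with a pseudocount of 1, which understates changes of weakly expressed genes, over genes with at least 1 FPKM in at least 1 table. The calls were tested on simulated data. Transcript lengths came from Ensembl 115 (BDGP6), and coordinates from the tables (BDGP5). Alternatives were another pseudocount (0.1), filter, scaling and fold (2). Named genes were the 5 most abundant in wild type at 0–0.5 h, the 3 largest changes each way per comparison, the 10 most and 3 least variable, gene pairs, "-like" genes and NSUN2, with others as examples of a role chosen after their values were seen. The members and gene lists were chosen with earlier results of these data known. Of the listed symbols, 30 of 39 for ribosome biogenesis, 29 of 38 for translation and 11 of 14 for growth control were found. Python 3.11.15, numpy 2.4.6, pandas 2.3.3, scipy 1.17.1 and matplotlib 3.10.9 were used. Some values of single genes are not reported here.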

Additional observations from a re-analysis of the deposited data

Results flagged for a closer look

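For 6 members the change since 0–0.5 h ran in opposite directions in the genotypes, with intervals that did not overlap within either genotype. The share of all genes that meet this rule is not given here, so the count is a description of these members only. The difference of the changes was not tested, since each rests on single tables. From 0–0.5 h to 2–3 h, RpL3 changed by 0.71 in knockout and -0.24 in wild-type embryos, a difference of 0.96 on the log2(FPKM + 1) scale. The differences were 0.93 for RpL6 (0.70 in knockout, -0.22 in wild-type embryos), 1.05 for RpL7A (0.77 and -0.28) and 0.73 for RpS2 (0.56 and -0.17), and -0.62 for RpL38 (-0.12 and 0.50). RpL3, RpL6, RpL7A and RpS2 belong to the 20 genes called higher in wild type at 3–4 h. With tables scaled by the median of ratios these 4 were positive in both genotypes (0.19, 0.21, 0.16 and 0.27 in wild-type embryos), as was RpL38 (0.03 in knockout embryos), while scaling to equal sums kept the opposite directions. From 0–0.5 h to 4–5 h, RpLP0 changed by -0.74 in knockout and 0.44 in wild-type embryos, a difference of -1.17, and kept these directions under both scalings.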

How the results depend on the processing

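Each condition has 1 table, with no replicate to leave out, and intervals cover 1 library only. No paired analysis was possible because no condition has replicate tables. Depth limits the members near 0 (RpL37b, RpS19b and RpS10a). The cause of the shifts below was not tested. No median of the members changed sign under any alternative run.

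With tables scaled to equal sums, members called lower in the knockout were 1 at 0–0.5 h and 4 at 2–3 h, the median at 2–3 h was -0.36, the first 3 wild-type steps had medians of 0.17, 0.13 and -0.14, and the second knockout step had a median of 0.30 with 3 called higher. With the median of ratios, knockout against wild type gave a median of -0.39 with 3 higher and 7 lower at 0–0.5 h, and -1.11 with 9 higher at 2–3 h. The wild-type steps then gave 0.50 with 18 higher, 0.49 with 8 higher, -0.82 with 57 lower, and 2 higher at the last step. The knockout steps gave 0.36, and 23 higher. With a fold of 2, knockout against wild type gave 1 higher and 1 lower at 0–0.5 h, and 9 higher and 2 lower at 2–3 h. The wild-type steps gave 0 higher at the first and second step and 3 lower at the last, and the knockout steps 1 and 2 higher. A pseudocount of 0.1 gave 2 lower in the knockout at 4–5 h. Omission of the low-value filter, or of copies and "-like" genes, changed none of these by more than the limits set. The shares of all genes called under these alternatives are not given here, so the counts describe the members only.

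Without mitochondrially encoded and short RNA genes in the sum, the members' share was 34.3% and 42.8% in knockout embryos of 2–3 h and 4–5 h, and 38.5%, 42.7%, 41.6% and 42.2% in wild-type embryos from 1–2 h on. Without RpL41 (an alternative chosen after seeing the data, as was leaving out the 3–4 h table) it was 26.5%, 30.2% and 37.2% in knockout embryos, and 29.0%, 33.2%, 36.2%, 36.3% and 36.2% in wild-type embryos.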
